A study of Mus musculus with 6 samples.

Results

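Ribosomal proteins of the cytosol assemble on ribosomal RNA into the small subunit, which reads the messenger RNA, and the large subunit, which joins the amino acids. Their messenger RNAs are among the most abundant of a dividing cell, and most begin with a terminal oligopyrimidine (TOP) tract, a run of C and T letters through which the kinase complex mTORC1 and the RNA-binding protein Larp1 control their translation and storage. T cells make many ribosomes when they are activated. The levels described below are of messenger RNA and do not show translation.

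The members were chosen by name: every gene called Rpl or Rps followed by a number, with or without a closing a, l or x, together with Rpsa, Rplp0, Rplp1 and Rplp2, and without pseudogene rows and the S6 kinases. The rule took 82 of the 47729 genes listed. Of these, 30 encode proteins of the small subunit, 43 proteins of the large subunit and 3 the proteins of its stalk (Rplp0, Rplp1 and Rplp2), which recruits elongation factors. The other 6 are copies of these genes, namely Rps4l, Rps27l, Rpl3l, Rpl6l, Rpl10l and Rpl39l, and Rps4l and Rpl6l are annotated as pseudogenes. Rps3a1, Fau and Rack1 also encode ribosomal proteins but are not named in this way, and they are described beside the members.

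Activated CD8+ T cells of mouse spleen had been given vehicle (3 libraries) or 2 µM blebbistatin (3 libraries) for 24 h. Blebbistatin inhibits the motor activity of myosin II, and the series concerns chemical modulators of the cytoskeleton in these cells. The mouse strain, age and sex, the means of activation and the nature of the vehicle are not in the labels used here, although the vehicle files carry the abbreviation pbs in their names. Whether replicates stand for separate animals or cultures is likewise not given, and a p-value here covers only how far these samples differ among themselves, possibly for technical reasons. Values are TPM, a relative transcript abundance corrected for transcript length and library size, so that levels of different genes can be compared. The libraries held between 18500000 and 19900000 sequenced fragments, as read from the deposited coverage, and across genes their log2 values correlated pairwise at 0.978 to 0.991. The 8 CD8 T cell markers summed to 10974 to 11186 TPM with vehicle and 9672 to 10438 with blebbistatin, and 1 of them was called lower by the test described below. Platelet markers summed to 51.16 to 59.99 TPM with vehicle and 112 to 131 with blebbistatin, where 5 of 6 tested were called higher. B cell markers summed to 522 to 539 TPM and 516 to 543 TPM, with 2 of 4 tested called higher. The part of these markers in the results below was not tested.

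No ribosomal protein gene passed the test for a difference between blebbistatin and vehicle, and their summed messenger RNA held nearly the same share of the transcriptome in both groups. Vehicle libraries gave the members 15.5%, 15.5% and 15.2% of all TPM, and blebbistatin libraries gave them 14.6%, 16.2% and 16.1%. The means were 15.4% ± 0.211 and 15.6% ± 0.920 (SD, n = 3), so the difference was smaller than the spread between the blebbistatin libraries. These are bulk samples, in which fewer cells of a type and less RNA per cell cannot be told apart. The spread was wider among the blebbistatin libraries. The members lay close together in the 3 vehicle libraries and apart in blebbistatin replicates 1 and 3, in an order that followed the GC content of their transcripts.

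The sequences below show the base composition of the coding start in some members at either end of the fold changes. They are the first 90 coding bases of the 3 large or small subunit members lowest, and of 3 of those highest, with blebbistatin relative to vehicle. Rps27, which had a higher fold change than Rpl9 and a transcript GC content of 52.0%, is not among those printed. The bases were read from the reference transcripts of GRCm38, with G and C in capitals.
Rpl13: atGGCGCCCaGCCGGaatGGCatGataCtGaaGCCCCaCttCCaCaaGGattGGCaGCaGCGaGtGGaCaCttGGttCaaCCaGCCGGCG
Rps2: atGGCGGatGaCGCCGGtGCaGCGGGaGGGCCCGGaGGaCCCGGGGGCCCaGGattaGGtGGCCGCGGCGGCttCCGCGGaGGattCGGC
Rpl36: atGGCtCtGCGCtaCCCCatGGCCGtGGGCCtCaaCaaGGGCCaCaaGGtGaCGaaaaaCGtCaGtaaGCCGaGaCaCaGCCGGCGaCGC
Rpl39: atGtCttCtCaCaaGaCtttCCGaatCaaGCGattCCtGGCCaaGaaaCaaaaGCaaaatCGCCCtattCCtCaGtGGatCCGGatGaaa
Rps24: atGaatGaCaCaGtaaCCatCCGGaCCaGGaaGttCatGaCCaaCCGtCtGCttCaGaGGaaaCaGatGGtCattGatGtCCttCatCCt
Rpl9: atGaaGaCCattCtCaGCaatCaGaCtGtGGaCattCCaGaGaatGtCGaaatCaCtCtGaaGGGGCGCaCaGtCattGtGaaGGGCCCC
G and C made up 60% of these bases in Rpl13, 75.6% in Rps2 and 62.2% in Rpl36. They made up 44.4% in Rpl39, 46.7% in Rps24 and 50% in Rpl9. Over the whole coding sequence the range was narrower, with 58.2% in Rpl13, 57.5% in Rps2 and 61.3% in Rpl36. There it was 44.2% in Rpl39, 46.0% in Rps24 and 48.9% in Rpl9. The genes lie on 5 different chromosomes: Rpl13 at chr8:123102350-123105244, Rps2 at chr17:24718116-24721929, Rpl36 at chr17:56613416-56614243, Rpl39 at chrX:37082520-37085402, Rps24 at chr14:24487125-24496959 and Rpl9 at chr5:65388364-65391444 of GRCm38.

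The 76 members that are not copies were highly expressed and short. Their mean level over the 6 libraries had a median of 1913 TPM, and 66 of them reached 1000 TPM. Rplp0, the core protein of the stalk, was highest at 5186 TPM, followed by Rps2 at 4337 TPM, Rpl23a at 4320 TPM and Rps26 at 4278 TPM. Rps15a at 240 TPM, Rpl22 at 249.8 TPM and Rps20 at 332 TPM were lowest. Their annotated transcripts, of 5130, 2048 and 3706 bases, were long among the members, and the part of this length in their TPM was not tested. The neighbours Rps2, Rpl23a and Rps26 did not differ in level beyond the spread of their blebbistatin libraries. The genes lie on 19 chromosomes, their transcripts had a median length of 772.5 bases against 2276.5 for all genes tested, and their median GC content was 51.9% against 50.3%.

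Of the 82 members, 80 reached a mean of 1 TPM and were tested with 13372 genes in all. limma on log2(TPM + 1) called 244 genes at an adjusted p under 0.05, or 1.82% of those tested, with 187 higher (1.4%) and 57 lower (0.426%) with blebbistatin. It called 0 of the 80 members. The lowest adjusted p of a member was 0.086, for Rpl9. At an unadjusted p under 0.05 there were 22 members, or 27.5%, against 22.9% of all genes tested, and all 22 were higher with blebbistatin. The 22.9% covers both directions: of 13372 genes, 1729 were higher and 1336 lower at that p. The 3 blebbistatin libraries all lay above the 3 vehicle libraries for 27 members, or 33.75%, and all below for 0, against 18% above, 13% below and 31% in either direction among all genes tested. The log2 fold change was above 0 for 50 members and below 0 for 30, with a median of 0.04 against 0.03 over all genes tested.

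The small subunit and the large subunit gave similar counts. Among 30 small subunit members, 8 had an unadjusted p under 0.05, 11 lay wholly above vehicle and the median log2 fold change was 0.04. The corresponding numbers for 43 large subunit members were 14, 16 and 0.05. Small subunit messenger RNA made up 6.25% ± 0.087 of all TPM with vehicle and 6.38% ± 0.342 with blebbistatin (SD, n = 3), and large subunit messenger RNA, stalk included, 9.09% ± 0.119 and 9.17% ± 0.581. The large to small ratio was 1.46, 1.45 and 1.46 in the vehicle libraries and 1.42, 1.45 and 1.44 in the blebbistatin libraries.

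**Figure D1:**
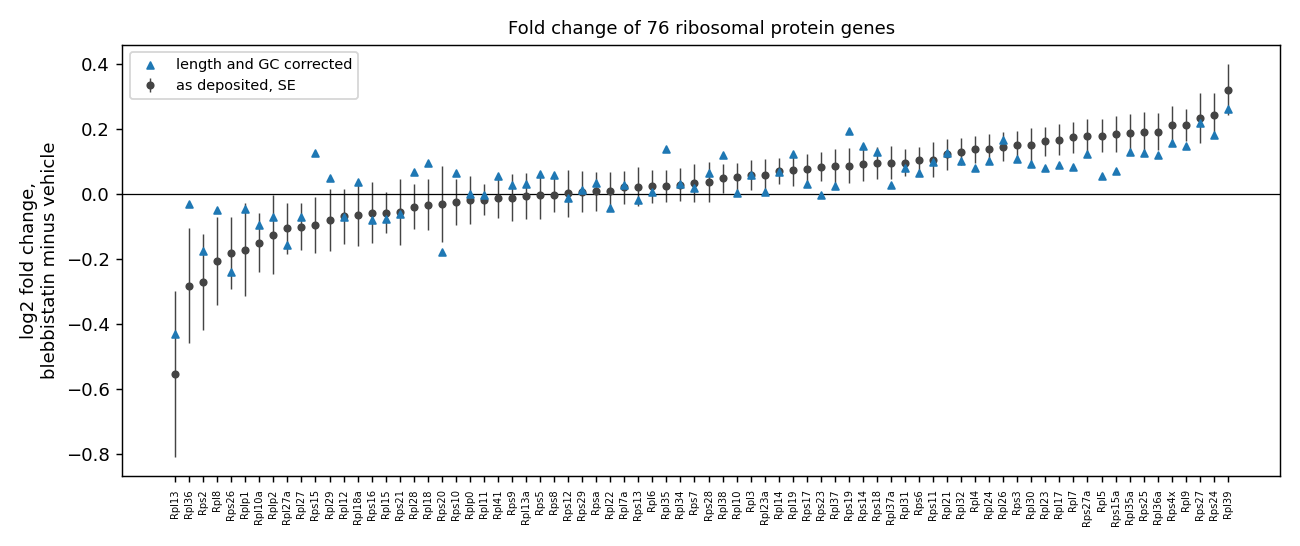
Log2 fold change, blebbistatin minus vehicle, of the 76 members that are not copies, ordered by that value (grey points with SE), with the value after correction of each library for transcript length and GC content (blue triangles). Values as deposited run from -0.55 for Rpl13 to 0.32 for Rpl39, and correction moves Rpl36 from -0.28 to -0.03.

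Small subunit members with the highest fold changes were Rps24, Rps27 and Rps4x. Rps24, which takes part in the processing of the small subunit's RNA, gave 2307, 2328 and 2243 TPM with vehicle and 2946, 2454 and 2758 TPM with blebbistatin. The groups did not overlap, and the log2 fold change was 0.24 (SE 0.07, limma adjusted p = 0.122). Rps27, a zinc finger protein of the small subunit, gave 1264, 1336 and 1261 TPM with vehicle against 1592, 1345 and 1620 TPM. Blebbistatin replicate 2 lay just above the highest vehicle library, and the log2 fold change was 0.23 (SE 0.08, adjusted p = 0.149 by limma). Rps4x, encoded on the X chromosome, gave 3063, 3010 and 2969 TPM with vehicle against 3729, 3245 and 3510 TPM. Its log2 fold change was 0.21 (SE 0.06, adjusted p = 0.115 by limma), again with replicate 2 nearest to vehicle.

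At the other end of the small subunit stood Rps2, Rps26 and Rps15. Rps2, a protein of the messenger RNA entry channel, gave 4834, 4668 and 4619 TPM with vehicle and 3051, 4783 and 4064 TPM with blebbistatin. Replicate 2 lay inside the vehicle range and replicates 1 and 3 below it, and the log2 fold change was -0.27 (SE 0.15, limma adjusted p = 0.310). Rps26, which contacts the messenger RNA at the exit channel, gave 4626, 4539 and 4418 TPM against 3325, 4613 and 4146 TPM, the same order of libraries. Its log2 fold change was -0.18 (SE 0.11, limma adjusted p = 0.361). For Rps15 it was -0.10 (SE 0.09), and 0.13 after the length and GC correction described below.

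The large subunit held the widest range. Rpl39, a small protein at the exit tunnel, gave 649, 673 and 638 TPM with vehicle and 900, 729 and 828 TPM with blebbistatin. All 3 blebbistatin libraries were above all 3 vehicle libraries, and the log2 fold change was 0.32 (SE 0.08, limma adjusted p = 0.091). Rpl9, a protein at the base of the stalk, gave 2149, 2094 and 2100 TPM against 2492, 2317 and 2546 TPM, also without overlap. Its log2 fold change was 0.21 (SE 0.05, limma adjusted p = 0.086).

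Rpl13, another protein of the large subunit, differed most in the other direction. It gave 3788, 3690 and 3686 TPM with vehicle and 1678, 3790 and 2563 TPM with blebbistatin. Replicate 1 was at 45.1% of the vehicle mean and replicate 3 at 68.9%, whereas replicate 2 was level with the highest vehicle library. The log2 fold change was -0.55 (SE 0.26, limma adjusted p = 0.246). Rpl36 gave 1728, 1710 and 1641 TPM against 1022, 1745 and 1512 TPM, and Rpl8 gave 3423, 3300 and 3274 TPM against 2300, 3460 and 3019 TPM. In both, replicate 2 was above the vehicle libraries and the other two below them, with log2 fold changes of -0.28 (SE 0.18) and -0.21 (SE 0.14).

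**Figure D2:**
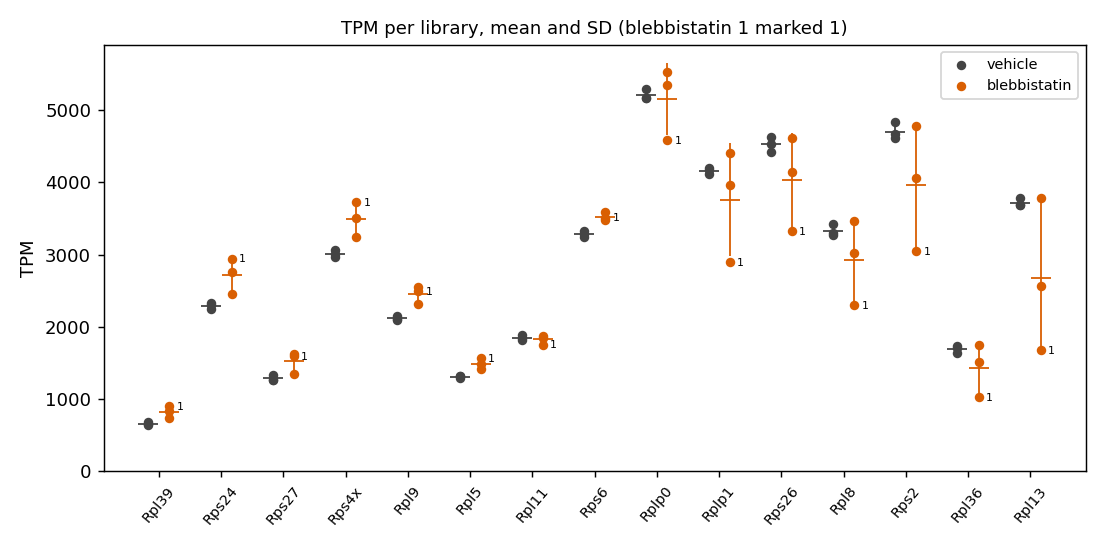
TPM of 15 members in each of the 6 libraries (points), with the mean and SD of each group (bars) and blebbistatin replicate 1 marked 1. Vehicle libraries lie close together for each gene, and the blebbistatin libraries of Rpl13 run from 1678 to 3790 TPM.

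In the stalk, Rplp1 had the same order of libraries as Rpl8. It gave 4179, 4194 and 4122 TPM with vehicle against 2890, 4413 and 3969 TPM, a log2 fold change of -0.17 (SE 0.14). For Rplp2 the log2 fold change was -0.13 (SE 0.12) and for Rplp0 -0.02 (SE 0.07). None of the 3 had an unadjusted p under 0.05 by limma.

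Several members have roles beyond the ribosome. Rpl5, Rpl11, Rpl23 and Rpl26 can bind Mdm2, the ligase that degrades p53, when ribosome assembly is disturbed, and Rpl5 and Rpl11 do so together as part of a small RNA-protein particle. Rpl5 gave 1320, 1319 and 1286 TPM with vehicle against 1559, 1407 and 1486 TPM, without overlap (log2 fold change 0.18, SE 0.05, limma adjusted p = 0.117). Its partner Rpl11 gave 1887, 1837 and 1817 TPM against 1750, 1849 and 1878 TPM, with overlap (log2 fold change -0.02, SE 0.05). The log2 fold change was 0.16 (SE 0.05) for Rpl23 and 0.15 (SE 0.05) for Rpl26. Rps6, the substrate of the S6 kinases, gave 3323, 3279 and 3242 TPM against 3513, 3482 and 3586 TPM, a narrow but complete separation (log2 fold change 0.10, SE 0.04, limma adjusted p = 0.193). Rps27a, which is made as a fusion with ubiquitin, had a log2 fold change of 0.18 (SE 0.05). Rps25 had 0.19 (SE 0.06), Rpl10a -0.15 (SE 0.09), Rpl38 0.05 (SE 0.04), Rps19 0.09 (SE 0.05), Rpsa 0.01 (SE 0.06) and Rpl13a -0.01 (SE 0.07), each with an adjusted p above the threshold in limma. Of the 18 members listed as genes of Diamond-Blackfan anaemia, a failure of red cell formation, 0 were called by limma. At an unadjusted p under 0.05 there were 6, all higher, or 33.3%, against 22.9% of all genes tested in either direction. Their median log2 fold change was 0.06 over the 18.

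The copies were low except for Rps27l. Rpl10l was at 0 in all 6 libraries, and Rpl3l did not reach 1 TPM. Rpl39l gave 1.1, 3.1 and 1.6 TPM with vehicle and 2.9, 2.6 and 3.3 TPM with blebbistatin, on 7 to 21 fragments per library, a log2 fold change of 0.47 (SE 0.24). Rps4l lay between 0.8 and 3.2 TPM and Rpl6l between 10.6 and 13.9 TPM. Rps27l, a target of p53 that differs from Rps27 in few amino acids, gave 586, 611 and 504 TPM with vehicle against 591, 562 and 535 TPM. The groups overlapped fully, and the log2 fold change was -0.01 (SE 0.08, limma adjusted p = 0.963). The first 90 coding bases of the pair are printed because reads of near copies can be confused. They differ at 24 bases, in capitals, and are 73.3% identical.
Rps27: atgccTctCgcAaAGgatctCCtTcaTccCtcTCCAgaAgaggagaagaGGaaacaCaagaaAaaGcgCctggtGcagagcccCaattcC
Rps27l: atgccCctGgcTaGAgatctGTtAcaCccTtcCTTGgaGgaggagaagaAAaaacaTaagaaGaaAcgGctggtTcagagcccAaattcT
The genes whose levels followed Rps27l most closely over the 6 libraries, among 10141 genes, were Rabepk (Pearson r 0.992), Cutc (0.992), Trbj2-4 (0.974), Renbp (0.966) and Taf13 (0.956). With 6 points, which share their library, this is a description of these samples.

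Among ribosomal proteins outside the naming rule, Rps3a1 gave 2883, 2843 and 2823 TPM with vehicle against 3288, 2971 and 3217 TPM, without overlap (log2 fold change 0.15, SE 0.05, limma adjusted p = 0.164). Fau, which yields Rps30, gave 1548, 1542 and 1547 TPM against 1122, 1575 and 1457 TPM, low in replicate 1. The log2 fold change was -0.17 (SE 0.12) for Fau and 0.05 (SE 0.06) for Rack1. The copies Rpl22l1, Rpl36al and Rpl7l1 had log2 fold changes of 0.17 (SE 0.09), 0.00 (SE 0.04) and 0.00 (SE 0.05), where Rpl22, Rpl36a and Rpl7 had 0.01 (SE 0.06), 0.19 (SE 0.06) and 0.17 (SE 0.05).

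Each blebbistatin library placed the members differently. In replicate 1, 38 of 76 members lay below the vehicle range, 8 inside and 30 above. In replicate 2 the numbers were 1, 11 and 64, and in replicate 3 they were 10, 9 and 57. The same counts over all genes tested are not given here, so these describe the members only. The deviations from the vehicle mean had an SD across members of 0.27 in replicate 1, 0.04 in replicate 2 and 0.13 in replicate 3 on the log2 scale, and of 0.01 to 0.02 in the vehicle libraries. Replicate 2 had the narrowest spread of the blebbistatin libraries, with a median of 0.08 and 74 of 76 members above 0. Replicate 3 had the same median, 0.08, with a wider spread, and replicate 1 a median of -0.03. Over all genes tested the medians were 0.05, 0.02 and 0.03 in blebbistatin replicates 1, 2 and 3. In both replicate 1 and replicate 3, Rpl13 was lowest and Rpl39 highest.

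**Figure D3:**
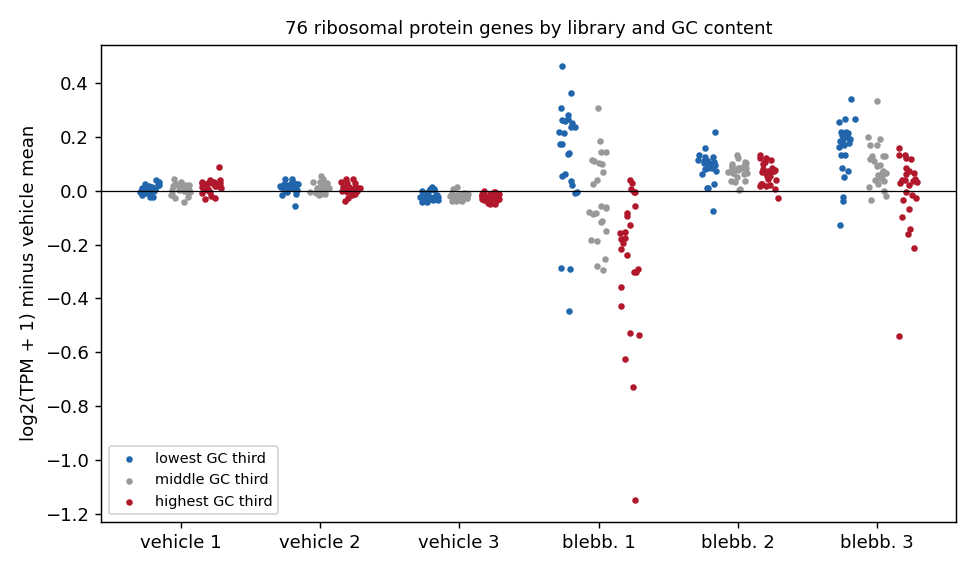
Deviation of log2(TPM + 1) from the vehicle mean for 76 members in each library, 1 point per gene, coloured by GC content of the transcript (25, 25 and 26 genes). The vehicle points lie near 0, 74 of 76 points of blebbistatin 2 lie above 0, and in blebbistatin 1 the members of lowest GC content have a median of 0.17 and those of highest GC content one of -0.19.

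The spread between replicates followed from this. The median coefficient of variation of the 76 members was 1.84% among vehicle and 6.45% among blebbistatin libraries, and it was larger with blebbistatin for 74 of the 76. With replicates 2 and 3 alone it was 3.56%. Among 526 other genes at or above the mean level of Rps15a the medians were 2.22% and 6.44%, so other abundant genes also had a wider spread with blebbistatin. Over all genes tested they were 6.835% and 9.997%.

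Across the 76 members, log2 fold change and transcript GC content had a Pearson r of -0.60 and a Spearman rho of -0.64. Genes are not independent replicates and share their libraries, so these values are given without a p. The same r was -0.60 for the deviations of replicate 1, -0.35 for replicate 2 and -0.52 for replicate 3, and between -0.13 and 0.21 for the vehicle libraries. Over the 13317 tested genes with a GC value it was -0.52, -0.05 and -0.28 in the 3 blebbistatin libraries, so the ordering by GC content in replicates 1 and 3 was also present across the transcriptome. Transcript length gave an r of 0.09 with the members' log2 fold change, and GC content at the third codon position -0.50.

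**Figure D4:**
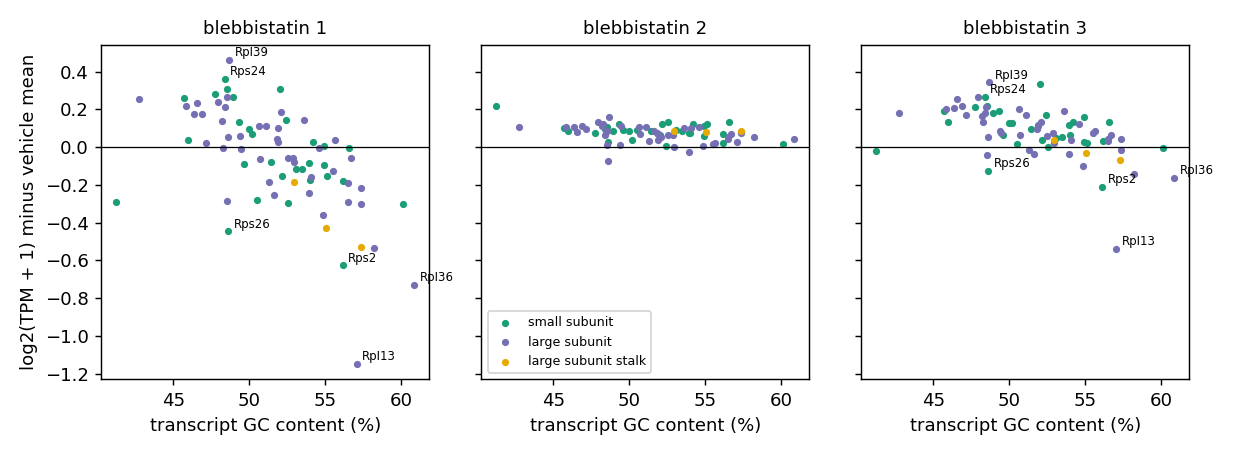
Deviation of log2(TPM + 1) from the vehicle mean against transcript GC content for 76 members in each blebbistatin library, coloured by subunit. Pearson r across members is -0.60, -0.35 and -0.52 from left to right, and Rps26, at 48.6% GC, lies below members of similar GC content in replicates 1 and 3.

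By GC content, the 25 members between 41.3% and 49.5% had a median log2 fold change of 0.16, the 25 between 49.6% and 53.6% had 0.03, and the 26 between 53.9% and 60.8% had -0.03. The fold change was above 0 for 22, 19 and 7 of them. After each library was corrected for transcript length and GC content across all genes, the 3 medians were 0.08, 0.03 and 0.06, and r over the 76 members was -0.07. With that correction limma called 0 of 80 members, where it called 4.35% of all genes, 321 higher and 258 lower. The lowest adjusted p was then 0.052, for Rps19, and 29 of 80 members had an unadjusted p under 0.05, against 24.5% of all genes. Rpl36 moved from -0.28 to -0.03, Rpl8 from -0.21 to -0.05 and Rpl5 from 0.18 to 0.06. Rpl13 moved from -0.55 to -0.43, Rpl39 from 0.32 to 0.26 and Rps24 from 0.24 to 0.18. Rps26 became more negative, from -0.18 to -0.24.

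Without blebbistatin replicate 2, limma called 16 of the 80 members, against 8.15% of all genes (496 higher and 594 lower). Rpl13 was lower (log2 fold change -0.84, adjusted p = 0.037 by limma), and 15 were higher, among them Rpl39 (0.40, adjusted p = 0.020), Rps27 (0.32, adjusted p = 0.021) and Rps24 (0.31, adjusted p = 0.022). The remaining 12 were Rpl5, Rpl7, Rpl9, Rpl17, Rpl23, Rpl30, Rpl35a, Rpl36a, Rps4x, Rps15a, Rps25 and Rps27a. Transcript GC content of the 15 ran from 42.7% (Rpl5) to 52.0% (Rps27), and that of Rpl13 was 57.1%. With the correction as well, 18 members were called, 17 of them higher, against 6.71% of all genes (373 higher and 521 lower). Of the 16 members, 9 were called in both settings, 7 (Rpl5, Rpl7, Rpl17, Rpl23, Rpl30, Rpl36a and Rps15a) were not called with the correction, and 9 others were called only with it. Leaving out any other single library called 0 members by limma, and 11 to 36 then had an unadjusted p under 0.05. The share of all genes at that p is not given for these settings, so this range is not read as a result about the members.

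The other TOP messenger RNAs, chiefly of translation factors, were listed beside the members. Of 24 such genes limma called 0. At an unadjusted p under 0.05 there were 7, or 29.2%, against 22.9% of all genes tested in either direction. All 7 were higher. The median log2 fold change was 0.06, with 21 above 0. Eif3e, a subunit of an initiation factor, gave 382, 387 and 381 TPM with vehicle against 507, 417 and 458 TPM (log2 fold change 0.26, SE 0.07, limma adjusted p = 0.115). Eef1b2, an elongation factor subunit, gave 537, 571 and 558 TPM against 648, 628 and 627 TPM (0.19, SE 0.05, limma adjusted p = 0.087). Gas5, a TOP transcript that hosts small nucleolar RNAs, had 0.19 (SE 0.07). Small nucleolar RNA genes lie within 29 of the 76 members, whose median was 0.02, against 0.04 in the 47 others.

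The lists of regulators and assembly factors held no call by limma either. Of 20 tested regulators of TOP messenger RNAs and mTORC1, 4 had an unadjusted p under 0.05, or 20%, against 22.9% of all genes. Tsc1 was higher (log2 fold change 0.25, SE 0.09). The other 3 were lower: Larp4b (-0.42, SE 0.13), Rps6kb2 (-0.22, SE 0.07) and Akt1s1. Larp1 gave 155, 167 and 168 TPM against 174, 165 and 171 TPM (log2 fold change 0.06, SE 0.05), with overlap. Akt1s1, an inhibitory subunit of mTORC1, gave 31.9, 28.5 and 28.6 TPM against 14.2, 28.4 and 20.1 TPM, with replicate 1 lowest and replicate 2 just below the lowest vehicle library (-0.53, SE 0.22, limma adjusted p = 0.202). Of 19 tested chaperones, importers and assembly factors of ribosomal proteins, 4 had an unadjusted p under 0.05. This was 21.1%, against 22.9% of all genes in either direction. These 4 were all lower: Rrs1 (-0.41, SE 0.11), Eif6 (-0.39, SE 0.13), Grwd1 (-0.32, SE 0.11) and Heatr3 (-0.20, SE 0.05). Rrs1 loads the particle of Rpl5 and Rpl11, Eif6 keeps the large subunit from joining early, and Grwd1 is the chaperone of Rpl3. Heatr3, the importer of Rpl5, gave 64.2, 67.8 and 67.6 TPM against 58.2, 57.0 and 58.6 TPM, and with the length and GC correction it was called (-0.27, limma adjusted p = 0.023).

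Mitochondrial ribosomal proteins, which serve the separate ribosome of that organelle, had a lower median. Of 82 genes 78 were tested and limma called 0. At an unadjusted p under 0.05 there were 20 lower and 1 higher, or 26.9%, against 22.9% of all genes tested (1336 lower and 1729 higher). Wholly below vehicle lay 25 and wholly above 5, or 38.5% in either direction, against 31% of all genes. The median log2 fold change was -0.09. With the correction the median was -0.11 and 2 of the 78 were called lower. In that setting limma called 258 of 13317 genes lower. The difference between the cytosolic and the mitochondrial genes was not tested.

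The promoters are shown for the TOP tract that the members are known for. RefSeq promoter windows of GRCm38.p6, from 250 bases before to 50 after the annotated start, were matched for 56 of the 76 members (66 windows). A run of at least 8 C or T was searched on the gene's strand, only from 60 bases before to 30 after the start. It was present in 62.1% of these windows, against 33.5% of 32851 windows of all genes. The word ACTTCCG, an ETS factor motif, searched on both strands of the full windows, was present in 31.8% against 6.42%. Such a match is a description of letters only. The lines below give 60 bases before to 30 after the annotated start, with the longest run of C and T in capitals, for 2 members low and 2 members high in replicates 1 and 3, and for Rps6.
Rpl13: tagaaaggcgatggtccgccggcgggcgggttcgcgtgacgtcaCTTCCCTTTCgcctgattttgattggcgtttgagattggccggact
Rps2: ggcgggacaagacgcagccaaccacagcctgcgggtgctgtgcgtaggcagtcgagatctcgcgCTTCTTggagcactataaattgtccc
Rps24: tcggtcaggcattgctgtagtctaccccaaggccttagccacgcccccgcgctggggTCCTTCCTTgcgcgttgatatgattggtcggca
Rpl39: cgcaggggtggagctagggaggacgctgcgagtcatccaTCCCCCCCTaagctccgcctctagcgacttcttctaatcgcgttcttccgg
Rps6: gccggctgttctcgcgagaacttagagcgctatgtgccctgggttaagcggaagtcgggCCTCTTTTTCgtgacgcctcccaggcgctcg
The windows are chr8:123102290-123102379, chr17:24720003-24720092, chr14:24490618-24490707, chrX:37085193-37085282 and chr4:86857338-86857427, the Rpl39 and Rps6 windows on the minus strand. The longest run was 10 bases in Rpl13 and Rps6, 9 in Rps24 and Rpl39 and 6 in Rps2, which is under the minimum of 8. For Rpl13 and Rpl39 the run lies before the annotated start, for Rps24 and Rps6 it spans the start, and for Rps2 it lies after it.

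Processed pseudogenes can take reads from their parents. The tables listed 270 pseudogene rows named for ribosomal proteins, 57 of the 76 members had at least 1, and their summed TPM was 1.12% to 1.25% of that of the members in every library. For single members the share was larger. Rpl17 had pseudogene rows summing to a mean of 291 TPM beside 1921 TPM of its own, and Rpl15 had 118 beside 1026 TPM. Exons of other annotated genes cover at least 20% of the exon bases of 11 members, among them Rpl35 (66.2%), Rpl23a (62.3%) and Rpl24 (47.0%), whose values may include reads of those genes because the library kit does not mark strand.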

How the data were processed

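RNA sequencing of 6 libraries, 3 per group, was used as deposited. The submitters' processing notes name DESeq2 1.22.2, HISAT2 2.1.0, StringTie 1.3.4 and build mm10, with no role for each. The authors made the TPM values, which sum to 1000000 per library, FPKM values of the authors differ by 1 factor per library, and the deposited coverage is mean read depth per gene. Further settings were not given in the sources used. Fragments were taken as 300 aligned bases per pair, from the ratio of coverage to FPKM (5.54 to 5.98).

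The files hold no counts, so log2(TPM + 1) was compared by limma 3.58.1 in R 4.3.3 for genes of mean TPM of at least 1, moderated along a trend of variance on level, with Benjamini-Hochberg adjusted p under 0.05 over all 13372 genes. Fold changes are on that log2 scale, which understates changes of low genes. The correction subtracted, per library, loess fits (span 0.5) on transcript length and GC content, available for 99.6% of tested genes. In simulated data for this comparison with 13372 genes and 200 changed, the test recovered 67% of those changed 1.5-fold and 87% of those changed 2-fold, with 11 false calls, and called 0 genes when none was changed. Noise was drawn there for each gene separately, without deviations shared by genes of like GC content. The log2 fold changes of the tested members, -0.55 to 0.47, were all smaller than 1.5-fold, so these rates do not cover them.

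Named genes were the 3 most abundant, 3 highest and 3 lowest members of each subunit, with a set of members of known roles, the copies and ribosomal proteins outside the name rule. One gene that the rule names is left out here. Others named were picked after their values were seen. Members and lists were chosen with earlier results of these data known. Annotation was GENCODE on GRCm38, in which 98.9% of gene identifiers matched. Plots used matplotlib 3.10.9 (Python 3.11.15).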

Additional observations from a re-analysis of the deposited data

How the results depend on the processing

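The number of members called was 0 in every alternative except those without blebbistatin replicate 2, so that leaving out 1 library gave 0 to 16, and 18 with the length and GC correction and without that replicate. That combination was chosen after seeing the data. The members' median log2 fold change moved by less than the spread between replicates in every alternative run for it, and so did their share of TPM in the 7 run for it (pseudogene rows added, and each library left out). Genes called overall were 244. They were 49 with no minimum level, 160 with no trend, 579 with the length and GC correction, 894 with that correction and without blebbistatin replicate 2, and 3 to 1090 when 1 library was left out, with each of the 6 libraries moving the number by over 1.5 times (vehicle replicates 1, 2 and 3 left out gave 13, 11 and 7 genes, blebbistatin replicates 1, 2 and 3 gave 120, 1090 and 3). The share of calls that were higher was 76.6%, 55.4% with the correction, 45.5% without blebbistatin replicate 2 and 41.7% with both. A replicate block, on numbers shared by the groups, gave 0 calls, and 16 members had an unadjusted p under 0.05. The share of all genes at that p is not given for the block either. Deviations of same-numbered libraries from their group means had correlations of 0.01, -0.04 and -0.03. The labels do not say what the numbers share, and with 3 libraries per group these values cannot decide whether the samples are paired. Of 754 values of 36 named genes, 710 kept direction and side of the threshold or, uncalled, turned sign within 1 SE, 23 newly passed, 20 turned sign by more without passing, and 1 turned sign and passed. There, Rps15 was 0.17 with the correction and without blebbistatin replicate 2. The cause was not tested. With 3 libraries per group and Rpl39l at 7 to 21 fragments, small differences of low copies could not be resolved.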
